A study of Mus musculus with 12 samples.

Results

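Goblet cell genes were followed here as 10 listed genes, Tff3, Spink4, Muc2, Agr2, Fcgbp, Clca1, Reg4, Atoh1, Spdef and Guca2a, among the 24906 genes of each deposited expression table. They were chosen by name, and all 10 passed the filter on low values (a mean of 0.5 FPKM or more over the 6 libraries of a table) in both tables. FPKM, fragments scaled to transcript length and library size, is a level per length, so genes can be compared with each other within a library.

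The libraries came from serrated tumor organoids of mouse small intestine labelled Smad4KO;BRAFV600E/+;pINDUCER-SMAD4. By this label every line, the untreated controls included, lacks Smad4, has one activated Braf allele and holds a lentiviral construct designed to make SMAD4 when doxycycline (dox) is given, although 1 library of line 682 is also labelled mock. Villin-CreERT2, which is active in intestinal epithelium, drove both genetic changes after tamoxifen, and transduced organoids were selected with puromycin. Organoids were cultured for 48 h untreated or with 4 µg/mL dox, either embedded in basement membrane extract (BME), a 3D matrix, or directly on tissue culture plastic, in medium with EGF, Noggin and R-spondin. Organoid lines 682, 700 and 889 were each sampled untreated in BME, and lines 700 and 889 also with dox. The treated library of line 682 carries the dose label followed by the word mock. A mock plasmid is given in the methods as the counterpart of the SMAD4 construct, and this library was counted as a control, which makes 4 control and 2 dox libraries in BME. Lines 560, 700 and 889 were sampled on plastic, each untreated and with dox. Each sample is 1 organoid line under 1 condition, and nothing in the labels gives the number of animals behind a line.

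Goblet cells are the mucus-secreting cells of the gut epithelium. They arise, with Paneth and enteroendocrine cells, from progenitors in which ATOH1 escapes Notch repression, and SPDEF then drives their maturation. They release MUC2, the gel-forming mucin, together with proteins that fold, crosslink and process it, and peptides that act on the epithelial surface. In bulk libraries such as these, fewer goblet-like cells and less RNA per cell cannot be told apart.

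RefSeq (GRCm38.p6) held a promoter for 7 of the 10 genes, and Tff3, Spink4 and Clca1 had none. Because most of the 10 genes varied together in these libraries, the 250 bases before the start are shown for the mucin itself, for the secreted peptide Guca2a, for the lineage regulator Atoh1, and for Agr2, whose level in BME differed least between treated and untreated libraries of the mock pair. Capitals mark letters that match 1 of 5 motifs, searched on both strands: CAGCTG (an E-box core of the kind bound by basic helix-loop-helix factors), CAGAC (the SMAD box), GGCGCC (a GC-rich SMAD element), TATAAA (the TATA box) and TTTATG (a CDX site core). No marked match overlapped another.
Muc2, chr7:141690090-141690339, plus strand: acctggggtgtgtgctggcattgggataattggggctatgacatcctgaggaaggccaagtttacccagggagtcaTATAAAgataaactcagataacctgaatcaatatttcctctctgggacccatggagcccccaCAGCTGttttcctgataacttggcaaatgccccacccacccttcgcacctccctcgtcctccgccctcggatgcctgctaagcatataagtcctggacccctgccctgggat
Guca2a, chr4:119637482-119637731, plus strand: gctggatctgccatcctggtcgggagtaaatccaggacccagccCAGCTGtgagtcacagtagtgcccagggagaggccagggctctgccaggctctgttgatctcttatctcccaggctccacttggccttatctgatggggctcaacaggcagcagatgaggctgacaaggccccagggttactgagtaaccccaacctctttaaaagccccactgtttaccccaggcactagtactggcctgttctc
Atoh1, chr6:64728875-64729124, plus strand: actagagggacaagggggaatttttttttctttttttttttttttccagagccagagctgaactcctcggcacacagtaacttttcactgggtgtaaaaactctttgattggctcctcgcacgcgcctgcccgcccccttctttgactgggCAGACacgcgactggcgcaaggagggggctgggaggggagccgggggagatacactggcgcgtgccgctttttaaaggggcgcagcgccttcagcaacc
Agr2, chr12:35992675-35992924, plus strand: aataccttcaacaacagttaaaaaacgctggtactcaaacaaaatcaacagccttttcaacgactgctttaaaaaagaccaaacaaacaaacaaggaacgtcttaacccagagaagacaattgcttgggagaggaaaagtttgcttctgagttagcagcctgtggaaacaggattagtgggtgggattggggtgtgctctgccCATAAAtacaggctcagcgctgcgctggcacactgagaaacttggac

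The CAGCTG core stood in 3 of the 7 windows (Muc2, Fcgbp and Guca2a), beside 13.0% of all 32851 promoter windows of the same length. It began 112 bases before the Muc2 start and 206 bases before the Guca2a start. CAGAC stood in 3 of 7 (Atoh1, Fcgbp and Spdef) beside 42.2% of all windows, TTTATG in 2 of 7 (Agr2 and Spdef) beside 10.8%, TATAAA in 1 of 7 (Muc2) beside 12.4%, and GGCGCC in 0 of 7 beside 9.59%. These are matches of letters and nothing more.

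The induction was checked first through Smad4 itself. In BME, the untreated and treated libraries held Smad4 at 6.53 and 17.2 FPKM in line 700, at 6.23 and 27.3 FPKM in line 889, and at 8.88 and 10.3 FPKM in the mock pair of line 682. On plastic the untreated and dox libraries stood at 1.54 and 73.6 FPKM (line 560), 2.99 and 18.1 FPKM (line 700), and 4.76 and 48.9 FPKM (line 889). Every dox library was thus above its untreated partner by at least 2.64-fold, and the mock library by 1.15-fold. Reads at Smad4 from the construct and from the disrupted gene cannot be told apart here. The Y-linked gene Eif2s3y, looked up after the values were seen, was at most 0.149 FPKM in all 6 libraries of lines 682 and 700 and between 23.2 and 37.1 FPKM in all 6 of lines 560 and 889. It thus set lines 682 and 700 apart from lines 560 and 889 in both tables. It cannot tell line 560 from line 889, or line 682 from line 700, so those labels were not checked. Relative depth, estimated from the steps between low values, ran from 0.63 to 1 of the deepest library, and 15723 to 16805 genes were above 0.

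In BME, 10 of the 10 goblet cell genes were lower with dox in line 700 and 9 of 10 in line 889, where Spdef was level, with none called by a test, and for 8 of the 10 the difference was wider in the mock pair, in which Smad4 was 1.15-fold higher. On the log2(FPKM + 1) scale, which understates changes of low genes, 7 of 10 (Tff3, Spink4, Muc2, Fcgbp, Clca1, Reg4 and Guca2a) were lower by more than 1 in both dox pairs, beside 0.339% of the 12996 genes tested, and the same 7 were lower by more than 1 in all 3 pairs, beside 0.162%. Line by line, 8 of 10 were lower by more than 1 in line 700 (1.79% of all genes) and 8 of 10 in line 889 (1.67%). In the mock pair alone 8 of 10 were lower by more than 1, beside 1.18% of all genes, and the median of the 10 changes was -3.00, against -1.44 in line 700 and -1.61 in line 889. The medians over all genes tested were near 0 (-0.0077, -0.0061 and -0.0033 in the same order). Each of these is 1 library against 1 library.

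Of the lineage regulators, Atoh1 had the lowest mean level of the 10 in BME (2.92 FPKM), while Spdef (17.3 FPKM) lay above Muc2 and Clca1. Atoh1 (chr6:64679140-64681227, plus strand, mm9), the basic helix-loop-helix factor that commits progenitors to the secretory fate, was at 4.07, 2.26 and 7.41 FPKM in untreated BME lines 682, 700 and 889, at 0.632 and 2.598 FPKM with dox in lines 700 and 889, and at 0.538 FPKM in the mock library. These levels correspond to 125, 68 and 246 reads untreated, 17 and 84 with dox and 16 in the mock library. Its 2 lowest libraries were therefore the mock library and dox line 700, while dox line 889 lay above untreated line 700. Spdef (chr17:27851297-27865896, minus strand), the ETS factor of goblet and Paneth cell maturation, was at 24.9, 20.5 and 15.4 FPKM untreated, at 6.33 and 15.5 FPKM with dox and at 21.1 FPKM in the mock library. Only dox line 700 stood apart for Spdef, and its change was -1.56 there, 0.01 in line 889 and -0.23 in the mock pair.

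The mucus proteins gave larger differences. Muc2 (chr7:148876268-148940595, plus strand), the mucin of the gut mucus gel, was at 8.13, 4.60 and 49.1 FPKM in untreated lines 682, 700 and 889, at 0.913 and 8.65 FPKM with dox, and at 0.408 FPKM in the mock library. Fcgbp (chr7:28856255-28905881, plus strand), a large mucin-like protein that associates with MUC2, was at 80.0, 50.95 and 202 FPKM untreated, at 10.6 and 49.3 FPKM with dox and at 2.84 FPKM in the mock library. For Fcgbp the 3 libraries given dox, mock included, lay below all 3 untreated ones, which was also true of Tff3 and of none of the other 8 members (2 of 10, beside 2.51% of all genes). Clca1 (chr3:144667501-144695740, minus strand, under the older name Clca3 in the mm9 annotation), a secreted metalloprotease that processes mucus, was at 20.3, 4.24 and 29.5 FPKM untreated, at 1.10 and 6.12 FPKM with dox and at 1.73 FPKM in the mock library. Tff3 (chr17:31262251-31266591, minus strand), the trefoil peptide of goblet cells, was at 1114, 605 and 1289 FPKM untreated, at 52.9 and 462 FPKM with dox and at 21.4 FPKM in the mock library. Tff3 in the mock pair was 52.1-fold lower, compared with 11.4-fold in line 700 and 2.79-fold in line 889.

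Agr2 (chr12:36719494-36730674, plus strand), the endoplasmic reticulum disulfide isomerase needed to fold MUC2, behaved apart from the mucus proteins. It was at 949, 992 and 871 FPKM untreated, at 529 and 660 FPKM with dox and at 913 FPKM in the mock library. Agr2 was the only member whose 2 dox libraries lay below all 4 control libraries (1 of 10, beside 5.83% of all genes), and also the member with the smallest difference in the mock pair (-0.06).

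The secreted peptides differed widely between lines. Guca2a (chr4:119310309-119312076, plus strand), guanylin, which activates the guanylate cyclase receptor of the epithelium, was at 14.2 and 6.79 FPKM in untreated lines 682 and 700 and at 346 FPKM in line 889. With dox it was at 2.10 FPKM (line 700) and 112 FPKM (line 889), and in the mock library at 0.860 FPKM, which is 5 reads. Dox line 889 was thus far above the untreated libraries of both other lines. Reg4 (chr3:98026079-98040671, plus strand), a secreted C-type lectin of goblet and enteroendocrine cells, was at 12.4, 10.9 and 246 FPKM untreated, at 2.92 and 74.4 FPKM with dox and at 0.155 FPKM in the mock library. Spink4 (chr4:40867085-40878428, plus strand), a Kazal-type protease inhibitor found in goblet cell granules, was at 449, 239 and 2183 FPKM untreated, at 96.7 and 714 FPKM with dox and at 30.2 FPKM in the mock library. In all 3 peptides the mock library was the lowest of the 6, and line 889 was the highest line in either condition.

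**Figure D1:**
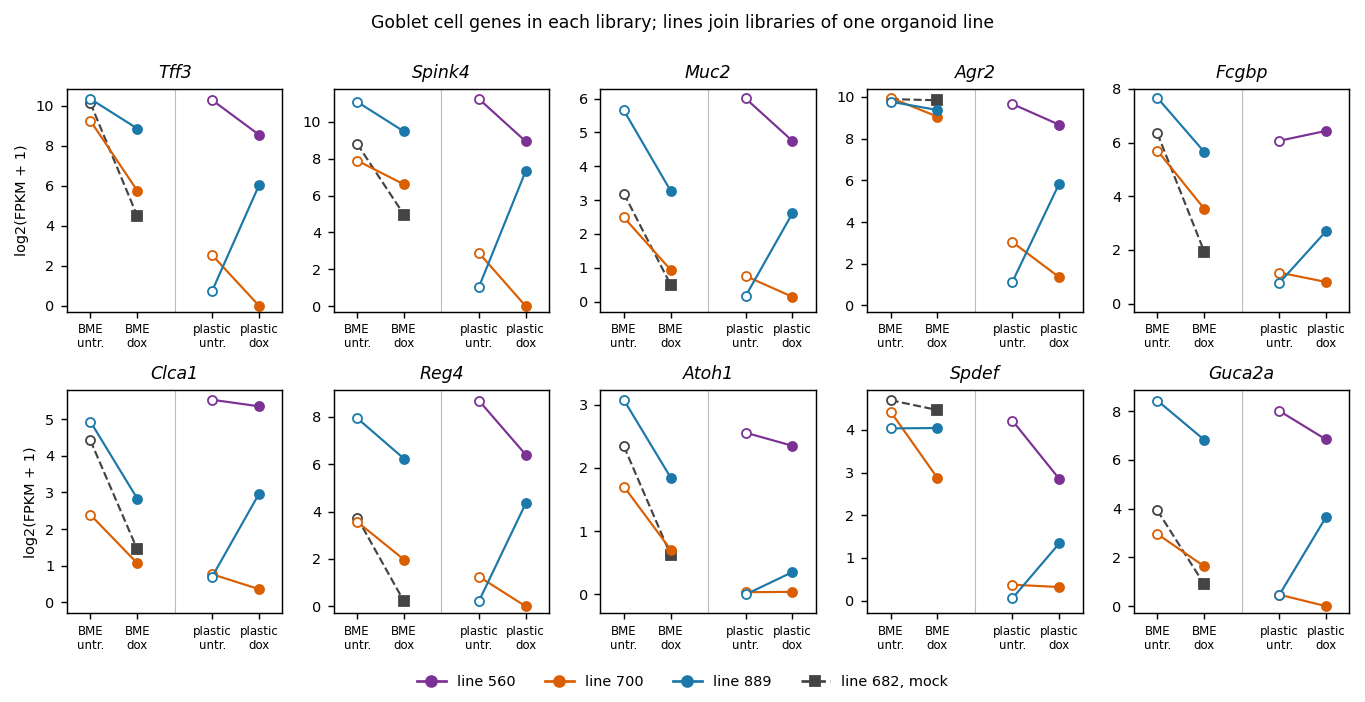
Level of each of the 10 genes in the 12 libraries, as log2(FPKM + 1) on a vertical axis that differs between panels, with BME at left and plastic at right of the grey line. Open circles are untreated libraries, filled circles dox libraries and the square the mock library, joined within a line by colour, and the reader should see lower treated values in BME for most genes and opposite slopes of lines 560 and 889 on plastic, where levels are not on one scale with BME.

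No member was called in limma fitted over all genes. With the mock library counted as a control, the 10 fitted differences in BME ran from -1.34 (Clca1) to 0.24 (Reg4), their median was -0.74 against -0.01 over all genes tested, and the lowest limma adjusted p was 0.959. Agr2 (-0.65, SE 0.16) and Spdef (-0.95, SE 0.35) had the only unadjusted p under 0.05 among the 10, beside 4.09% of all genes, and the limma adjusted p of both was 0.959. Across all genes 3 of 12996 were called, 0.0231%. With line as a block all 10 differences were below 0 (median -1.56), again with none called (lowest limma adjusted p 0.671).

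Counting the mock library with the dox libraries and keeping line as a block, an alternative added after the values were seen, treats the 3 BME pairs as replicates of dox exposure whatever Smad4 did. The difference was then -2.21 for Muc2 (SE 0.24, limma adjusted p 0.107), -1.31 for Atoh1 (SE 0.18, limma adjusted p 0.128) and -2.13 for Clca1 (SE 0.32, limma adjusted p 0.143). It was -3.54 for Tff3 (SE 0.77, limma adjusted p 0.242), the widest of the 10. Of the 10 members 8 had an unadjusted p under 0.05, Agr2 and Spdef being the exceptions, beside 11.8% of all genes, but none passed over all genes (limma adjusted p from 0.107 to 0.522, and 0 of 12996 genes called, 159 at an unadjusted p with a difference over 1). Dox itself and SMAD4 made from the construct cannot be told apart in the dox pairs, since the genotype label gives every library the construct.

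**Figure D2:**
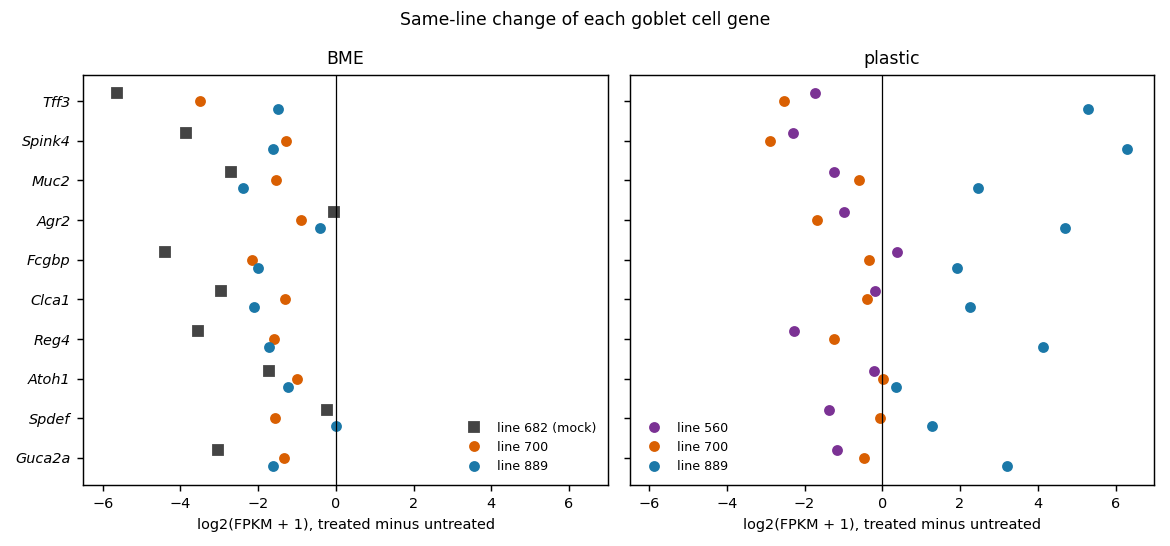
Same-line difference of each gene in log2(FPKM + 1), treated minus untreated, for the 3 BME pairs (left) and the 3 plastic pairs (right); each point is 1 library minus 1 library and the square is the mock pair. In BME the points lie at or left of 0 and the mock pair is farthest left for 8 of 10 genes, whereas on plastic line 889 lies right of 0 for every gene.

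On plastic the untreated lines were unlike each other. Line 560 held goblet cell genes at high levels, with Spink4 at 2433, Tff3 at 1238, Agr2 at 806 and Reg4 at 411 FPKM. In untreated lines 700 and 889 the same genes were far lower. The 10 genes summed to 5343 FPKM in line 560, against 23.1 FPKM in line 700 and 4.93 FPKM in line 889. The highest member was Agr2 in both lines 700 and 889, at 7.23 FPKM (line 700) and 1.19 FPKM (line 889).

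Dox was accompanied by lower levels in line 560, by near loss in line 700 and by higher levels in line 889. In line 560, 6 of 10 genes (Tff3, Spink4, Muc2, Reg4, Spdef and Guca2a) were lower by more than 1, beside 4.77% of 12333 genes tested. In line 700, 4 of 10 (Tff3, Spink4, Agr2 and Reg4) were, beside 3.92%. In line 889, 9 of 10 (all but Atoh1) were higher by more than 1, beside 7.32%, with a median of 2.83. Being lower by more than 1 in line 560 and higher by more than 1 in line 889 held for 6 of 10, beside 0.381%.

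Spink4 showed the widest swing, at 2433 FPKM untreated and 491 with dox in line 560, at 6.41 FPKM and listed at 0 in line 700, and at 1.05 and 161 FPKM in line 889. Tff3 was at 1238 and 372 FPKM, at 4.77 FPKM and listed at 0, and at 0.672 and 64.0 FPKM in the same order. Even with dox, line 889 remained below untreated line 560 for both. Reg4 was at 411 and 83.6 FPKM in line 560, at 1.39 FPKM and listed at 0 in line 700, and at 0.163 and 19.4 FPKM in line 889. Guca2a was at 258 and 114 FPKM, at 0.386 and 0 FPKM, and at 0.366 and 11.6 FPKM, where the pair of line 700 is 3 reads and 0 reads, and 0 reads allow up to 0.448 FPKM (3 reads, counting error only).

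The mucus genes kept to the same pattern in lines 700 and 889 and less so in line 560. Muc2 was at 63.1 and 25.8 FPKM in line 560, at 0.687 and 0.102 FPKM in line 700 and at 0.1199 and 5.12 FPKM in line 889. Clca1 was at 45.0 and 39.7 FPKM, at 0.704 and 0.286 FPKM (20 and 7 reads), and at 0.627 and 6.78 FPKM (19 and 156 reads). Fcgbp was the only member higher with dox in line 560, at 65.9 and 85.5 FPKM, and was at 1.23 and 0.751 FPKM in line 700 and at 0.700 and 5.48 FPKM in line 889. Agr2, the most abundant member of lines 700 and 889 untreated, was at 806 and 404 FPKM in line 560, at 7.23 and 1.55 FPKM in line 700 and at 1.19 and 56.4 FPKM in line 889.

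The regulators were near the limit of detection in 2 of the 3 lines. Atoh1 was at 4.88 and 4.098 FPKM in line 560 (205 and 173 reads), at 1 read in each library of line 700, and at 0 reads untreated and 9 reads with dox (0.278 FPKM) in line 889. A count of 0 there allows up to 0.0703 FPKM. Atoh1 thus passed the filter on low values on plastic only through line 560. Spdef was at 17.6 and 6.23 FPKM in line 560, at 0.295 and 0.248 FPKM in line 700 and at 0.0388 and 1.53 FPKM in line 889. With dox, Atoh1 in line 889 (0.278 FPKM) thus stood beside Spink4 at 161 and Tff3 at 64.0 FPKM.

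No member was called on plastic, where limma called 4 of 12333 genes (0.0324%). The 10 fitted differences ran from -0.04 (Spdef) to 0.68 (Agr2), with standard errors from 0.89 to 3.25 and a lowest limma adjusted p of 0.960. With line as a block the differences are the same and the lowest limma adjusted p was 0.594 (Fcgbp, 0.65, SE 0.45), with 7 genes called over the table (0.0568%). The interaction of dox and environment, which asks whether the difference with dox was unlike in the 2 environments, called 0 of 11977 genes (159 at an unadjusted p with a difference over 1), with a lowest limma p of 0.414 among the 10 members.

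Line 889 was sampled in both environments, and 7 of 10 genes were lower by more than 1 with dox in BME and higher by more than 1 on plastic, beside 0.376% of the 11977 genes tested in both. Tff3 differed by -1.48 in BME and 5.28 on plastic, and Spink4 by -1.61 and 6.30. This is 1 pair per environment and has no replicate check. Line 700 gave no such contrast, with 10 of 10 lower in BME and 9 of 10 lower on plastic. Its plastic pair was near the floor, with 5 of 10 members under 1 FPKM untreated. There 4 of 10 were lower by more than 1 (median -0.54).

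Levels in the 2 tables were scaled separately, so BME and plastic were compared only by a gene's percentile rank within its own library, over 13352 genes. Untreated BME libraries placed Tff3, Spink4 and Agr2 between the 97.4th and 99.8th percentile, Fcgbp between 85.7 and 97.2, and Atoh1 between 20.5 and 40.2. On plastic, untreated line 560 placed Tff3, Spink4 and Agr2 at 98.9 or above and Atoh1 at 40.3, with Agr2 just under and Atoh1 just over the range of the BME libraries. Untreated lines 700 and 889 placed no member above 46.6 and 19.2.

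The median rank of the 10 genes was 69.6, 58.0 and 97.4 in untreated BME lines 682, 700 and 889 and 93.2, 17.6 and 12.1 in untreated plastic lines 560, 700 and 889. Only Agr2 was lower in all 3 untreated plastic libraries than in all 3 BME ones (1 of 10, beside 15.2% of all genes), with an exact two-sided permutation p of 0.1, the smallest that 3 against 3 can give. The exact permutation p of the other 9 ran from 0.2 to 0.6. Without plastic line 560 all 10 lay below every BME library, beside 25.8% of all genes, so the comparison of environments turned on this line.

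Line 560 was not sampled in BME, and untreated line 560 on plastic had a Spearman correlation of 0.911 with untreated BME line 889 over the 13352 genes, compared with 0.856 for untreated plastic line 889 itself. Line and environment cannot be told apart for line 560. Within the lines sampled in both, Tff3 went from the 98.9th percentile in BME to 38.2 on plastic in line 700 and from 99.5 to 14.4 in line 889. Agr2 went from 99.2 to 46.6 and from 99.2 to 19.2.

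**Figure D3:**
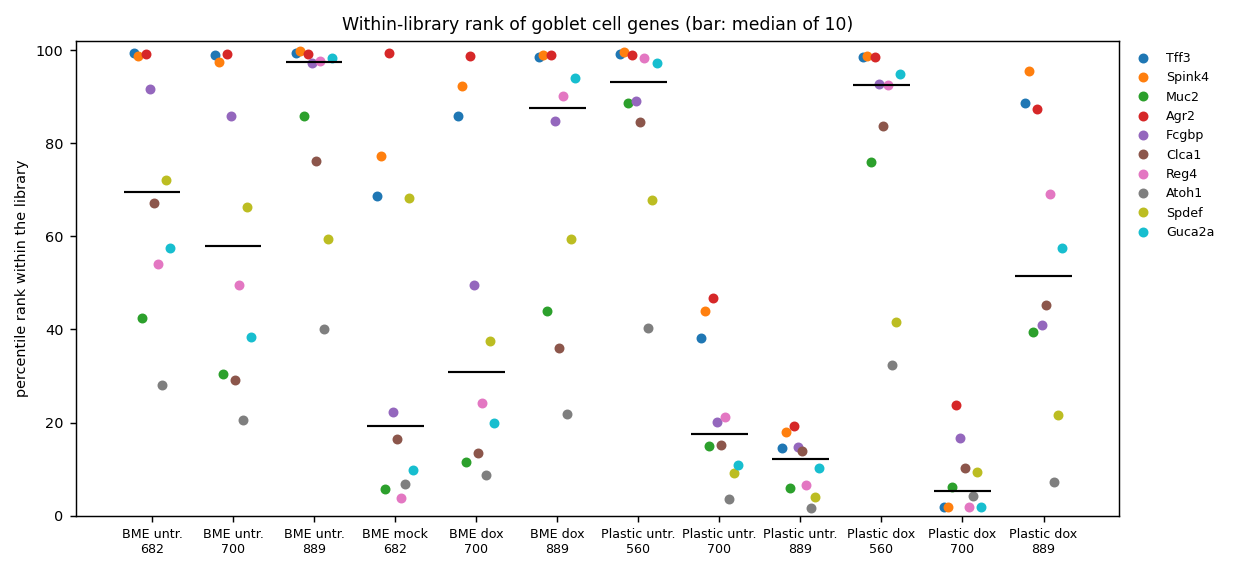
Percentile rank of each of the 10 genes within each of the 12 libraries (0 is the lowest and 100 the highest of 13352 genes), with a bar at the median of the 10. The medians are 12.1 and 17.6 in untreated plastic lines 889 and 700 and 93.2 in line 560, and the mock library (19.3) has the lowest median in BME.

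The 10 genes varied together. Over the 12 libraries, with values centred within each table, the 45 pairs of members had a median Pearson correlation of 0.91 (from 0.72 to 0.99). Each gene's correlation with the mean of the other 9 ran from 0.83 for Spdef and 0.86 for Agr2 to 0.98 for Muc2. The genes outside the list with the most similar pattern to the mean of the 10 were Pthlh (0.97), which encodes parathyroid hormone-like hormone, Sidt1 (0.97), Lgr5 (0.97), the receptor that marks crypt stem cells, Gm17619 (0.97) and Mmp7 (0.96), the matrix protease of Paneth cells. Of the genes tested in both tables outside the list, 50 (0.418%) had a correlation over 0.9. These 12 points share lines, and the correlations are a description.

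Gene by gene the nearest pattern was that of Pthlh for Tff3 (0.98) and Spink4 (0.98), Mmp7 for Muc2 (0.97) and Reg4 (0.97), Ppp1r1b for Agr2 (0.98), Zg16, a lectin of goblet cell granules, for Fcgbp (0.97), Akna for Clca1 (0.97), Lgr5 for Atoh1 (0.97), Slc12a8 for Spdef (0.97) and Ankrd37 for Guca2a (0.97). Zg16 and Slc12a8 are on the list of other goblet cell genes.

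Other genes known from goblet cells followed only in part as a list. Of 28 listed, 23 were tested in BME and 22 on plastic, and limma called 0 in either. At an unadjusted p under 0.05 with a difference over 1, 2 were lower and 1 higher in BME, and 1 was higher on plastic. The list's median fitted difference, with the mock as a control, was -0.01 in BME, as over all genes tested. On plastic it was -0.22 against 0.01. In each BME pair 5 of 23 were lower by more than 1, beside 1.18% (mock), 1.79% (line 700) and 1.67% (line 889) of all genes. Higher by more than 1 were 1, 2 and 2. On plastic 7 of 22 were lower by more than 1 in line 560 (4.77%) and 5 higher in line 889 (7.32%). Past 1 the other way went 2 and 0. Pair medians were -0.33, -0.11 and -0.47 in BME, and -0.69, -0.19 and 0.58 on plastic (lines 560, 700 and 889). Tpsg1 (4.11, 2.17 and 7.62 FPKM in untreated lines 682, 700 and 889, and 0.0758, 0.252 and 1.88 FPKM in the mock and dox libraries) and Rep15 (2.59, 2.58 and 4.53 against 0.326, 0.722 and 0.748 FPKM) paralleled the members in BME. Pla2g10, a secreted phospholipase, went the other way in all 6 pairs. It was at most 0.743 FPKM in every untreated library, at 4.55 FPKM in the mock library and between 2.76 and 15.4 FPKM in the 5 dox libraries (limma adjusted p 0.959 in BME and 0.190 on plastic). Oit1 had a mean same-line difference of 1.46 in the BME dox pairs but -0.21 in the mock pair. On plastic, among genes of one sign in all 3 pairs, Bcas1 (-0.80) and Gmds (-0.79), the first enzyme of GDP-fucose synthesis, had the lowest means. Ttc39a (-0.74), named from the high end of those genes after Pla2g10, was also lower in all 3 pairs.

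The secretory lineage transcription factors gave small differences as a list, with a median of -0.16 in BME (20 tested, 0 called) and 0.20 on plastic (19 tested, 0 called). In BME the lowest means beside Atoh1 belonged to Neurog3 (-0.94), the enteroendocrine determinant, and the highest to Gata6 (0.96) and Hes1 (0.43), the Notch effector that represses Atoh1. The Gata6 mean came from line 889 (1.91), with 0.01 in line 700 and 0.01 in the mock pair. Hes1 was higher in all 3 BME pairs, at 52.3, 67.2 and 45.5 FPKM untreated and 73.2, 86.9 and 65.0 FPKM in the mock and dox libraries. On plastic Gata6 (2.08), Insm1 (1.89) and Gata4 (0.64) were the 3 with the same sign in every pair and the rule named no other.

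The machinery of mucin folding and secretion stayed close to 0 in BME, with a median of 0.04 over 26 genes, and was at 0.26 on plastic, with 0 called in either. In line 889 on plastic all 26 were higher with dox (median 0.71). Pdia5, a disulfide isomerase, was at -0.74 in BME, with 9.69, 5.89 and 17.7 FPKM untreated and 5.44, 3.16 and 10.05 FPKM in the mock and dox libraries, whereas Ssr4 (0.40) and Dnajc3 (0.29) were highest. On plastic the means were 0.98 for Dnajc3, 0.83 for Herpud1, 0.38 for Hyou1 and 0.25 for Pdia4. Mucin glycosylation genes had medians of 0.17 in BME (27 tested) and 0.28 on plastic (24 tested), with 0 called and 4 higher at an unadjusted p on plastic. Their named examples were Galnt10 (0.50), St3gal1 (0.43), Galnt12 (-0.36) and St3gal4 (-0.63) in BME, and Fut8 (1.81), Galnt6 (1.19), St3gal4 (-0.40) and B3gnt7 (-0.67) on plastic. Trefoil factors, secreted mucins and guanylins, a list that shares Tff3, Muc2 and Guca2a with the members, had medians of -0.27 (13 tested) and 0.29 (10 tested) with 0 called, and Gkn1, a gastric peptide, was its highest in BME (1.09). By pair, the medians of this list in BME were -0.14 (mock), 0 (line 700) and -1.48 (line 889). In line 889 the list thus stood near the members (-1.61).

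**Figure D4:**
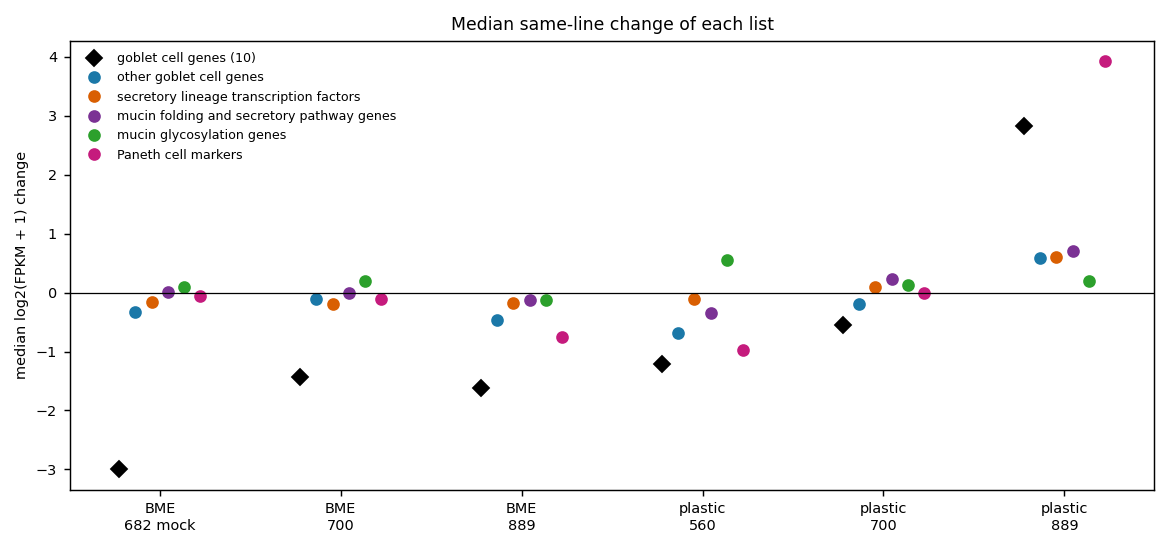
Median same-line difference in log2(FPKM + 1), treated minus untreated, of the 10 goblet cell genes (diamonds) and of 5 other lists in each of the 6 pairs. In BME the goblet cell median (-3.00, -1.44 and -1.61) lies below those of the 5 other lists shown, and in plastic line 889 it (2.83) is exceeded only by the Paneth cell markers (3.93). The list of trefoil factors, secreted mucins and guanylins is not shown.

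Paneth cell markers ran with the goblet cell genes in some pairs and not in others. Their summed level was 137, 290 and 3880 FPKM in untreated BME lines 682, 700 and 889, 118 and 2623 FPKM with dox and 105 FPKM in the mock pair's treated library. On plastic it was 3234 and 1753 FPKM in line 560, 105 and 50.3 FPKM in line 700 and 232 and 636 FPKM in line 889. Few markers carried the low sums. Nupr1 alone was at 89.4 FPKM in the mock library and at 90.1 FPKM in BME dox line 700. In untreated plastic lines 700 and 889, 7 of 9 markers were under 1 FPKM. All 9 markers were higher with dox in plastic line 889 (median 3.93), and 7 of 9 were lower in line 560, while in the mock pair the median was -0.06. Of the defining markers, Mmp7 followed the members in BME (57.3, 181 and 691 FPKM untreated against 10.02, 20.1 and 221 FPKM), whereas Itln1 was higher with dox in lines 700 and 889 (1.17 and 1.65) and Lyz1 was at most 0.351 FPKM in lines 682 and 700. Defa5 and Defa17 were at 0 in all 6 libraries of lines 682 and 700. Their part in the goblet cell result was not tested.

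Crypt stem cell markers also ran beside the members in BME, through Lgr5, at 48.1, 43.0 and 71.1 FPKM untreated and 15.7, 12.3 and 29.2 FPKM in the mock and dox libraries, while Rnf43 (-0.46), Smoc2 (-0.18) and Sox9 (0.11) had small means. The stem cell list had a median of -0.42 in BME and -0.22 on plastic (6 tested, 0 called). Absorptive enterocyte markers had medians of 0.76 and 0.64 (7 tested each, 0 called). Named examples were Sis (1.26), Alpi (1.05) and Fabp2 (0.48) in BME and Apoa1 (0.79) on plastic. In the mock pair Sis differed by 0.02, Alpi by -0.44 and Fabp2 by -0.39, and the enterocyte list's median was -0.11. Untreated and with dox in BME, Sis was at 0.0224 and 0.512 FPKM in line 700 and at 12.4 and 50.7 FPKM in line 889.

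Markers of the labelled tissue were high in sum, but not every marker was present. Intestinal epithelium markers summed to 4240 to 9864 FPKM in BME and 11909 to 17390 FPKM on plastic, with medians of 0.53 and 0.31 (10 and 9 tested, 0 called) and Krt8 (1.09) the highest mean in BME. Krt19 alone was at 5718, 4188 and 3956 FPKM in untreated plastic lines 560, 700 and 889. Cdx1 was listed at 0 in the untreated and mock libraries of line 682 and in untreated BME line 889. On plastic it was at 0 in lines 560 and 700 and in untreated line 889. Krt20 was at 0.967 and 0.592 FPKM in untreated plastic lines 560 and 889. Summed levels over all 12 libraries stayed between 0.0609 and 7.40 FPKM for enteroendocrine markers, 7.38 and 39.3 FPKM for tuft cell markers, 14.8 and 64.6 FPKM for immune cell markers, 0.224 and 7.07 FPKM for fibroblast markers and 0.133 and 4.14 FPKM for endothelial markers. None of these lists held a called gene. The tuft cell markers summed to 19.3, 17.7 and 11.7 FPKM in untreated BME lines 682, 700 and 889 and to 8.52, 7.58 and 21.7 FPKM in the mock and dox libraries, so this sum was lower in lines 682 and 700 and higher in line 889. Of the 3 tuft markers tested in BME, 3, 3 and 2 were lower in these pairs. Pou2f3 was at 7.18, 4.22 and 1.15 FPKM untreated and at 1.31, 1.23 and 0.256 FPKM in the mock and dox libraries. Trpm5 was at 3.32, 0.967 and 0.584 FPKM against 0.357, 0.223 and 0.229 FPKM. The part of these lists in the goblet cell result was not tested.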

How the data were processed

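RNA sequencing of 12 organoid libraries was analysed from the deposited FPKM tables, 1 for BME and 1 for plastic, each with 24906 genes. Per the labels, the authors quantified reads with kallisto, used DESeq2 and named the mm9 build; versions and the FPKM normalization are not given in the sources used here, so the main tests were run on log2(FPKM + 1) within each table. Further deposited tables hold the authors' own comparisons of dox with no dox and were not used. All per-sample columns were used (0 left out).

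Libraries were grouped by their labels, with line as the replicate name. limma 3.58.1 in R 4.3.3 (lmFit, eBayes with trend, two-sided, Benjamini-Hochberg over all genes tested) was fitted to genes with a mean of 0.5 FPKM or more. Calls needed an adjusted p under 0.05 and a difference over 1. The script was tested on simulated data. Libraries of one line deviated together (correlations of 0.65, 0.71 and 0.74 in BME, lines 682, 700 and 889, and 0.46, 0.61 and 0.25 on plastic, lines 560, 700 and 889), and the numbers name the same organoid line, so line as a block was fitted as an alternative. Nothing says that lines were cultured separately for each table, so p-values measure the spread between these libraries. No 2 libraries held identical values (66 pairs, Spearman correlation at most 0.979). Exact permutation tests of ranks used scipy 1.17.1. Where a gene's low values were whole multiples of 1 step, reads were rebuilt (within 0.12 of a whole number below 20 reads), and otherwise the depth behind a level is unknown. Read numbers cover counting error only.

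The genes named were the 10 members, Smad4, and in each other list the 2 genes with the highest and the 2 with the lowest mean same-line difference among those of one sign in every dox pair, with the genes most alike in pattern. A gene that this rule names in the absorptive enterocyte list is not reported here. Members and lists were chosen with earlier results of these data known. Coordinates are from GENCODE vM1 (NCBIM37, the mm9 build).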

Additional observations from a re-analysis of the deposited data

Results flagged for a closer look

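Among the 4 BME control libraries (3 untreated and the mock), the highest library stood far from the others in FPKM for 3 of 10 genes tested. It was always untreated line 889. Muc2 was at 49.1 FPKM there, Reg4 at 246 FPKM and Guca2a at 346 FPKM, with 0.842, 0.950 and 0.961 of the group's range lying between it and the next library (more than Dixon's 95% limit for 4 samples). The limit flags about 1 in 20 groups of normally distributed values, a rate not established for FPKM. The 10 genes are not independent of each other. On the log2(FPKM + 1) scale untreated line 889, untreated line 682 and the mock library stood at 5.65, 3.19 and 0.494 for Muc2. They stood at 7.95, 3.75 and 0.208 for Reg4 and at 8.44, 3.93 and 0.896 for Guca2a. The limit was not tested on that scale. For all 3 genes the lowest library was the mock library, which was given dox.

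In line 889 the difference with dox had opposite signs, each over 1, in BME and on plastic for 7 genes. The plastic difference minus the BME difference, on the log2(FPKM + 1) scale, was 7.91 for Spink4, 6.76 for Tff3, 5.84 for Reg4, 4.83 for Muc2, 4.82 for Guca2a, 4.35 for Clca1 and 3.94 for Fcgbp. This rests on 1 pair per environment, and the difference was not tested within the line.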

How the results depend on the processing

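No member was called under any alternative run, but sizes and directions moved. In the interaction of lines 700 and 889 alone, 9 members were fitted, since Atoh1 did not pass the filter there. In BME the differences of Tff3, Spink4, Muc2, Fcgbp and Atoh1 widened from -1.24, -0.15, -0.85, -0.82 and -0.66 to -2.49, -1.45, -1.96, -2.09 and -1.11 with line as a replicate block. Reg4 and Guca2a, above 0 with the mock library as a control, turned to -1.66 and -1.47 with line as a replicate block and to -2.28 and -1.99 with the mock library counted with dox, with or without the block. Leaving out 1 library at a time, the BME differences ran from -2.80 to 0.31 (Tff3), -1.58 to 1.29 (Spink4), -2.02 to 0.32 (Muc2), -1.97 to 0.24 (Fcgbp), -1.90 to 2.37 (Reg4) and -2.42 to 2.77 (Guca2a), while Agr2, Clca1, Atoh1 and Spdef stayed below 0. On plastic every member changed sign without some library: Tff3 (-1.55 to 3.22), Spink4 (-1.64 to 3.46), Muc2 (-0.93 to 2.04), Agr2 (-1.06 to 3.20), Fcgbp (-0.91 to 2.35), Clca1 (-0.67 to 2.15), Reg4 (-1.39 to 2.85), Atoh1 (-0.67 to 0.90), Spdef (-0.79 to 1.29) and Guca2a (-1.15 to 3.04). A pseudocount of 0.1 turned Tff3 to -0.32, Spink4 to -0.40 and Spdef to 0.63 there, and the interaction of Spink4 to -0.26. The interaction of Reg4 turned to 1.85 with the replicate block, 2.48 with the mock library counted with dox, 3.09 in lines 700 and 889 alone and 1.18 without the mock library. The replicate block changed no other direction and no call of a member.

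Counts over all genes were small and unstable. BME calls went from 3 to 1 with a pseudocount of 0.1, to 0 with the replicate block or with the mock library counted with dox (with or without the block), and from 0 to 37 leaving out 1 library, with 37 only without dox line 700. Plastic calls went from 4 to 10 with a pseudocount of 0.1, to 0 without the filter, to 7 with the replicate block, and from 0 to 55 leaving out 1 library, with 55 without dox line 700. Interaction calls went from 0 to 5 without the filter. Genes whose ranks did not overlap between untreated plastic and BME numbered 4435, and 4924 to 7467 leaving out 1 library (7467 without plastic line 560). The causes were not tested. The count with the mock library moved to dox under the block, and the member count without plastic line 560, were chosen after seeing the data.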
